A study of Mus musculus with 3 samples.

Results

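Expression in the utero-tubular junction of mice mated with vasectomized males was compared with expression in mice that had not mated. The comparison used 2 of the 3 arrays of the study, chosen by their mating labels, and every probe that was not a control, 41174 probes for 27669 gene names. Each array held total RNA of 1 pool of 10 adult CD-1 females in estrus, an outbred strain, hybridised with the single dye Cy3. The control pool came from females in estrus without mating. The third array, from females mated with normal males, is set beside the comparison where stated. It shares the not-mated array, so the values of both matings are not independent of each other. There was 1 array a group, so no error between animals, pools or arrays exists, no p-value is given, and every difference below is one between these pools. No source used here gives the time from mating to collection.

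The utero-tubular junction is a narrow and folded muscular passage that joins the uterus to the oviduct, and sperm pass it on their way to the egg. A vasectomized male delivers seminal fluid from its accessory glands but no sperm, so this mating carries copulation and seminal fluid without the male's gametes. In the mouse uterus, mating is known for a rapid inflammatory response with cytokine release and entry of neutrophils, and the junction is lined by ciliated and secretory epithelium that answers to oestrogen and progesterone.

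Marker genes of the labelled tissue were present on both arrays. A relative signal is the processed signal divided by the 75th percentile of the array, so that 1 is the level of a fairly bright probe. The epithelial keratin Krt8 had a relative signal of 102 on the not-mated and 90.1 on the vasectomized-mated array, and the smooth muscle gene Cnn1 had 85.8 and 172. The 75th percentile of signal was 295 on the vasectomized-mated array, below the 874 of the not-mated and the 708 of the normal-mated array. Spike-in control probes were brightest on the vasectomized-mated array, at a mean log2 signal of 13.46 against 12.34 and 12.53. Between 65.9% and 70.7% of spots were well above background on the 3 arrays, and 0 spots were saturated. Values below are log2 ratios after scaling to the 75th percentile, and they are relative: the median of all genes moved by 0.38 with normexp background correction, by 0.29 without a filter on dim probes and by -2.75 with scaling to the spike-in probes. With the spike-in scaling, genes and lists given below as higher by less than about this amount would lie below the not-mated array, so every direction below is relative to the other genes of the array.

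Probes of one gene often disagreed in this comparison, and the disagreement went with the distance between them. The distance was taken from the probe coordinates in the array files, which are on mouse build mm7. Where a gene's outermost measured probes lay under 60 bases apart, their log2 ratios differed by a median of 0.0955 (167 genes). That difference was 0.327 at 60 to under 300 bases (375 genes), 0.804 at 300 to under 1000 bases (758 genes) and 1.00 at 1000 to under 3000 bases (1281 genes), and it stayed near this level at longer distances. For normal mating against the same not-mated array the medians over the same 4 distances were 0.0685, 0.109, 0.161 and 0.277. The probe nearer the 3' end had the higher ratio in 71.5% of genes at 60 to under 300 bases and in 70.1% at 300 to under 1000 bases, against 52.9% and 52.0% for normal mating. The share was lower at longer distances, 61.4% at 1000 to under 3000 bases, 60.03% and 52.2% in the next classes and 44.3% at 100000 bases and over. For normal mating it was 43.0%, 47.5%, 60.3% and 61.2% in these 4 classes. Spots of one probe agreed closely on every array, with a median SD of log2 signal between 0.054 and 0.0644. Neighbouring probes thus repeated each other, while distant probes of the same gene often did not, and the cause was not tested. Agreement between close probes is therefore no independent repeat. Of the genes named below with agreeing probes, Arhgap30, Ccne1, Cox7a2, Defb1, Defb19, F3, Hand2, Hyal1, Junb, Oosp1, Pgk1, Tg and Wfdc18 have probes under 60 bases apart. Those of Ackr1, Alox12, Ccl7, Cited4, Col15a1, Cyp11a1, Krt36, Mcpt4, Ogdh, Prok2, Rora, Slc5a1, Ssr4 and Tmem256 lie 60 to under 300 bases apart. No distance was computed for Dcpp1, Dcpp2 and Rplp0.

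**Figure D1:**
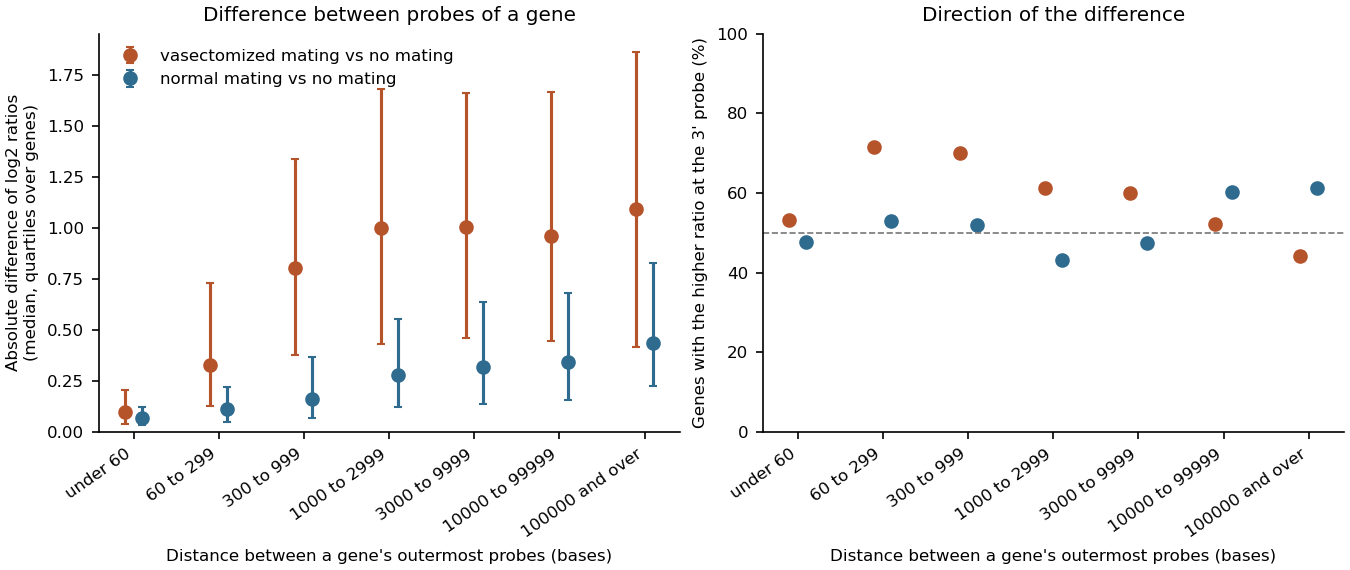
Left, the absolute difference in log2 ratio between the outermost measured probes of a gene against their distance in bases, as the median and quartiles over genes, for vasectomized mating and normal mating, each against no mating. Right, the percentage of genes whose 3' probe had the higher ratio. The vasectomized-mating medians climb from 0.0955 to 1.00 between the first and the fourth distance class, and the normal-mating medians from 0.0685 to 0.277.

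A gene's value is the mean log2 ratio over its probes that were well above background on both arrays. A gene with no such probe but with signal on 1 array has only a bound, written "at least" or "at most". Of 19310 genes compared, 4477 (23.2%) were higher by 2-fold or more after vasectomized mating and 3190 (16.5%) were lower by that much, around an all-gene median of 0.12. With normexp background correction the split was 5540 higher and 1394 lower, and with spike-in scaling 202 higher and 16836 lower. Several usable probes were present for 6734 genes. In 512 of them (7.6%) every probe was at least 2-fold higher, in 499 (7.41%) every probe was at least 2-fold lower, and in 388 (5.76%) probes passed 2-fold in opposite directions. In a further 3208 (47.6%) some probes passed 2-fold and others did not, and in 2127 (31.6%) none did. For genes with agreeing probes the split was 632 higher and 203 lower with normexp correction, and 10 higher and 5395 lower with spike-in scaling. Among 5972 genes with probes at least 300 bases apart, 363 (6.08%) were higher by every probe, 426 (7.13%) lower and 369 (6.18%) opposite. After normal mating 1816 of 19309 genes (9.4%) were higher and 2542 (13.2%) lower. By every probe, 317 of 6888 genes (4.6%) were higher there, 384 (5.57%) lower and 21 (0.305%) opposite, with 1287 (18.7%) mixed and 4879 (70.8%) within 2-fold. With probes at least 300 bases apart these shares were 4.07% higher, 5.36% lower and 0.278% opposite of 6115 genes.

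The agreeing genes had smaller differences on the normal-mated array. Their median log2 ratio was 1.80 for the 512 higher genes and -1.80 for the 499 lower genes, whereas after normal mating the medians of the same genes were 0.44 and -0.44. Of 510 higher genes with a value for normal mating, 137 were at least 2-fold higher there, 12 lower and 361 within 2-fold. Of the 499 lower genes, 4 were at least 2-fold higher, 131 lower and 364 within 2-fold. The genes were chosen on the vasectomized-mated array, so the size of their ratios there is fixed by the choice.

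Ptgs2, the inducible cyclooxygenase that starts prostaglandin synthesis, had the largest difference among higher genes with 2 or more probes, all measured and agreeing. Its relative signal was 0.0954 without mating, 12.9 after vasectomized mating and 2.12 after normal mating. This was a log2 ratio of 7.08, or 135-fold, and its 2 probes gave 7.05 and 7.11. The probes lie 328 bases apart on the plus strand of mm7 chromosome 1, at chr1:150032900-150032959 and chr1:150033228-150033287. The second one is printed 10 times, with an SD of log2 signal over its spots of 0.0696 on the not-mated and 0.0297 on the vasectomized-mated array. Normal mating gave 4.47 by the same probes, so the not-mated pool was lowest and the vasectomized-mated pool highest.

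Ifi27l2a, a small membrane protein induced by interferon, followed with relative signals of 4.99, 232 and 29.7 on the not-mated, vasectomized-mated and normal-mated arrays. Its log2 ratio was 5.54, with probes at 5.30 and 5.78 that lie 712 bases apart, and 2.57 after normal mating. Gch1 makes the precursor of tetrahydrobiopterin, the cofactor of nitric oxide synthases. It stood at 0.0617, 1.19 and 1.14, a ratio of 4.27 (probes 3.95 and 4.58) that was nearly matched after normal mating at 4.21. Agr3, a disulfide isomerase relative known from ciliated cells, stood at 0.797, 10.8 and 3.77, a ratio of 3.75 (probes 3.66 and 3.85).

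Several leading genes were much higher on the vasectomized-mated array than on either of the others. Tmem256, which encodes a small membrane protein, had relative signals of 4.82, 103 and 9.02 and a ratio of 4.42, against 0.90 after normal mating. Rgs18, a brake on G-protein signalling in blood cells and platelets, had 0.0301, 0.367 and 0.0448, a ratio of 3.61 (probes 3.56 and 3.66). For the retinol-binding protein gene Rbp7 the signals were 0.795, 7.68 and 1.31, a ratio of 3.27 by probes 3745 bases apart. Arhgap30 was at 3.23, but its probes lie 22 bases apart, and normal mating gave -0.52. Pde6h, an inhibitory phosphodiesterase subunit known from cone cells, was at 3.27 (probes 3.12 and 3.41) and at 0.90 after normal mating. Ssr4, a subunit of the translocon-associated complex of the endoplasmic reticulum, was at 3.33 and 1.04.

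The remaining leading genes were at least 2-fold higher after both matings, as Ssr4 was by its mean. Of these, Junb was also much higher after vasectomized than after normal mating. Slc5a1, the sodium-glucose cotransporter, had relative signals of 0.0461, 0.616 and 1.05, with ratios of 3.74 and 4.51 after vasectomized and normal mating. Prok2, a secreted attractant that neutrophils make, had 0.0347, 0.387 and 0.345, with ratios of 3.48 and 3.31. The secreted oviduct and salivary proteins Dcpp1 and Dcpp2 were at 3.81 and 3.92 after vasectomized and at 5.01 and 4.96 after normal mating, and since these genes are near-identical copies their probes cannot be assigned to one of them. Junb, a subunit of the transcription factor AP-1, had relative signals of 15.4, 137 and 33.9, with ratios of 3.16 and 1.14.

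Among higher genes with several agreeing probes, at least 1 of them at background on the not-mated array, the largest bound belonged to Cyp11a1, which cleaves the cholesterol side chain as the first step of steroid synthesis. It was at least 107-fold higher, with both probes at bounds of 6.27 and 7.20 on the log2 scale, against a bound of 2.41 after normal mating. Oosp1, an oocyte-secreted protein gene, was at least 62.0-fold higher by probes only 10 bases apart. Trem1, a receptor that amplifies inflammatory signals in neutrophils and monocytes, was at least 20.7-fold higher, with bounds of 3.58 and 5.17 from probes 1563 bases apart. The defensin gene Defb19 was at least 19.7-fold higher and thyroglobulin, Tg, at least 10.3-fold, each by probes 20 bases apart. Pnoc, the precursor of nociceptin, was at 3.46 by its 1 measured probe and at 5.42 after normal mating.

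Lower genes with agreeing probes were led by Ces2b, a carboxylesterase that hydrolyses lipids and drugs. Its relative signal was 9.95 without mating, 0.143 after vasectomized mating and 0.444 after normal mating. This was a log2 ratio of -6.12, with probes at -6.98 and -5.27, and -4.49 after normal mating. Ihh, the hedgehog ligand that carries the progesterone signal from uterine epithelium to stroma, stood at 1.04, 0.0493 and 0.0907. Its ratio was -4.40, with probes at -4.94 and -3.86, and -3.52 after normal mating. Both probes lie on the minus strand of mm7 chromosome 1, at chr1:75185454-75185513 and chr1:75187527-75187586. Both of these genes were lowest on the vasectomized-mated array and next lowest on the normal-mated one.

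Rtn1, a reticulon of the endoplasmic reticulum, had relative signals of 12.6, 0.813 and 2.77, a ratio of -3.96. Elapor1, a membrane protein of the endosomal and lysosomal system, was at -3.97 with 4.93, 0.315 and 1.56. The glutathione transferase Gstm7, one of a family of similar genes, was at -3.74 with 1.86, 0.139 and 0.483. In these 3 genes the normal-mated array lay between the other two, at ratios of -2.19, -1.66 and -1.94. The same order held for the cytochrome b5 reductase Cyb5r3 (-3.83 and -1.18 after normal mating), the sphingomyelin synthase Sgms2 (-3.28 and -1.37), the hair keratin Krt36 (-3.29 and -2.62), the co-regulator Cited4 (-3.15 and -1.44), the lysosomal hyaluronidase Hyal1 (-2.97 and -1.68) and the GTPase regulator Sgsm1 (-3.00 and -1.27). The 12-lipoxygenase Alox12 was at -2.92 and -0.99.

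For Vars, Mta3 and Ogdh the normal-mated array lay within 2-fold of the not-mated one by every probe. Vars, the valyl-tRNA synthetase, had relative signals of 1.37, 0.147 and 1.08, a ratio of -3.23 by probes at -3.53 and -2.93. Mta3, a subunit of a chromatin-remodelling co-repressor, had 3.32, 0.374 and 2.64, a ratio of -3.15 by probes 9632 bases apart. Ogdh, of the citric acid cycle, was at -3.39 by probes 70 bases apart, with 1.24, 0.118 and 0.792. Among lower genes with several agreeing probes and a bound, the largest values were those of Pinlyp (-5.90 by its measured probe and -5.23 after normal mating), the kinesin Kif12 (-5.03 and -6.38), the calcium-binding mitochondrial protein Efhd1 (-4.88 and -2.33) and the proprotein convertase Pcsk6 (-3.27 and -1.28). For Pinlyp, Efhd1 and Pcsk6 the normal-mating value is the mean over both probes. The probe measured after vasectomized mating gave -5.24, -2.07 and -1.17 in normal mating. The dopamine receptor Drd4 was at least 27.3-fold lower and the protease inhibitor Mug2 at least 13.6-fold lower.

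**Figure D2:**
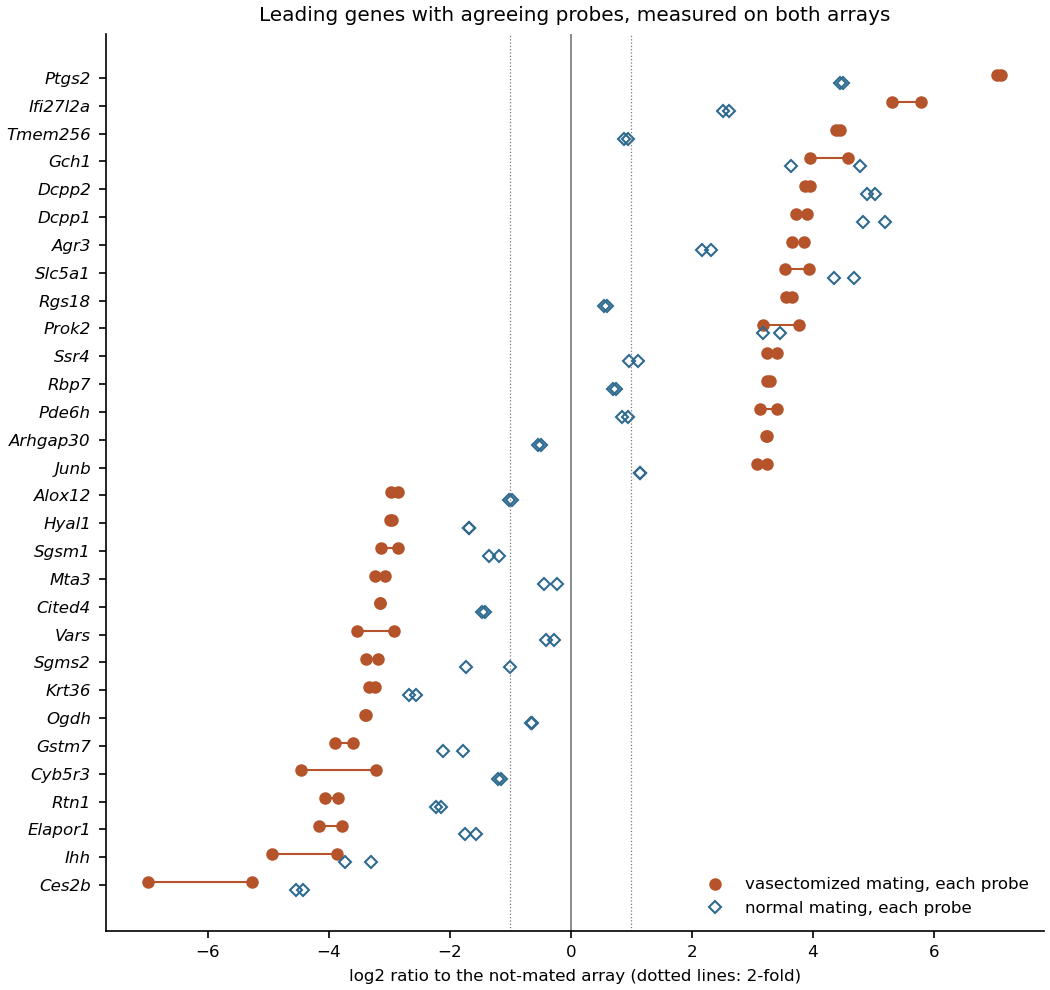
Log2 ratio to the not-mated array of each probe of the 15 leading higher and 15 leading lower genes whose probes all agreed and were measured on both arrays. Filled circles are vasectomized mating, joined by a line within a gene, open diamonds are normal mating, and dotted lines mark 2-fold. Ptgs2 leads at 7.05 and 7.11 and Ces2b ends the order at -6.98 and -5.27.

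**Figure D3:**
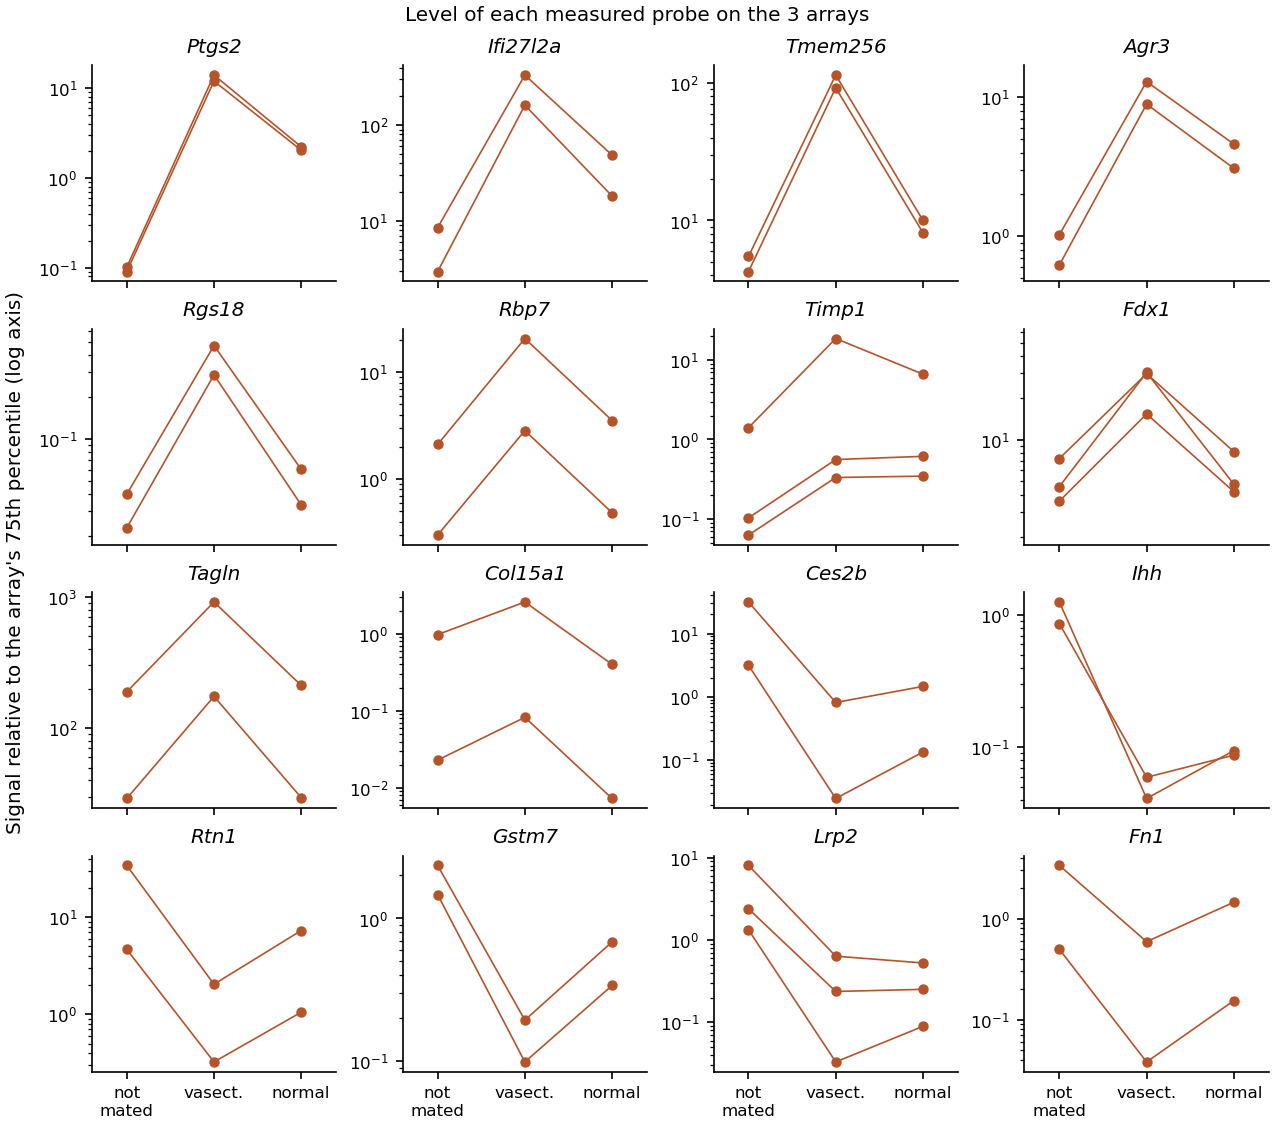
Relative signal on a log axis of every measured probe of 16 genes on the not-mated, vasectomized-mated and normal-mated arrays, with lines joining the values of a probe. Higher genes such as Tmem256 and Rgs18 peak on the vasectomized-mated array, and Ces2b and Ihh are low after both matings.

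Gene groups were described by how many of their compared genes passed 2-fold, to be read against 23.2% higher and 16.5% lower over all genes. Their medians were read against the all-gene median of 0.12, and where a list changed its side of that median under one of 9 other scalings or filters this is stated beside it. Since each array held a whole tissue, more cells of a type and more RNA per cell cannot be told apart.

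**Figure D4:**
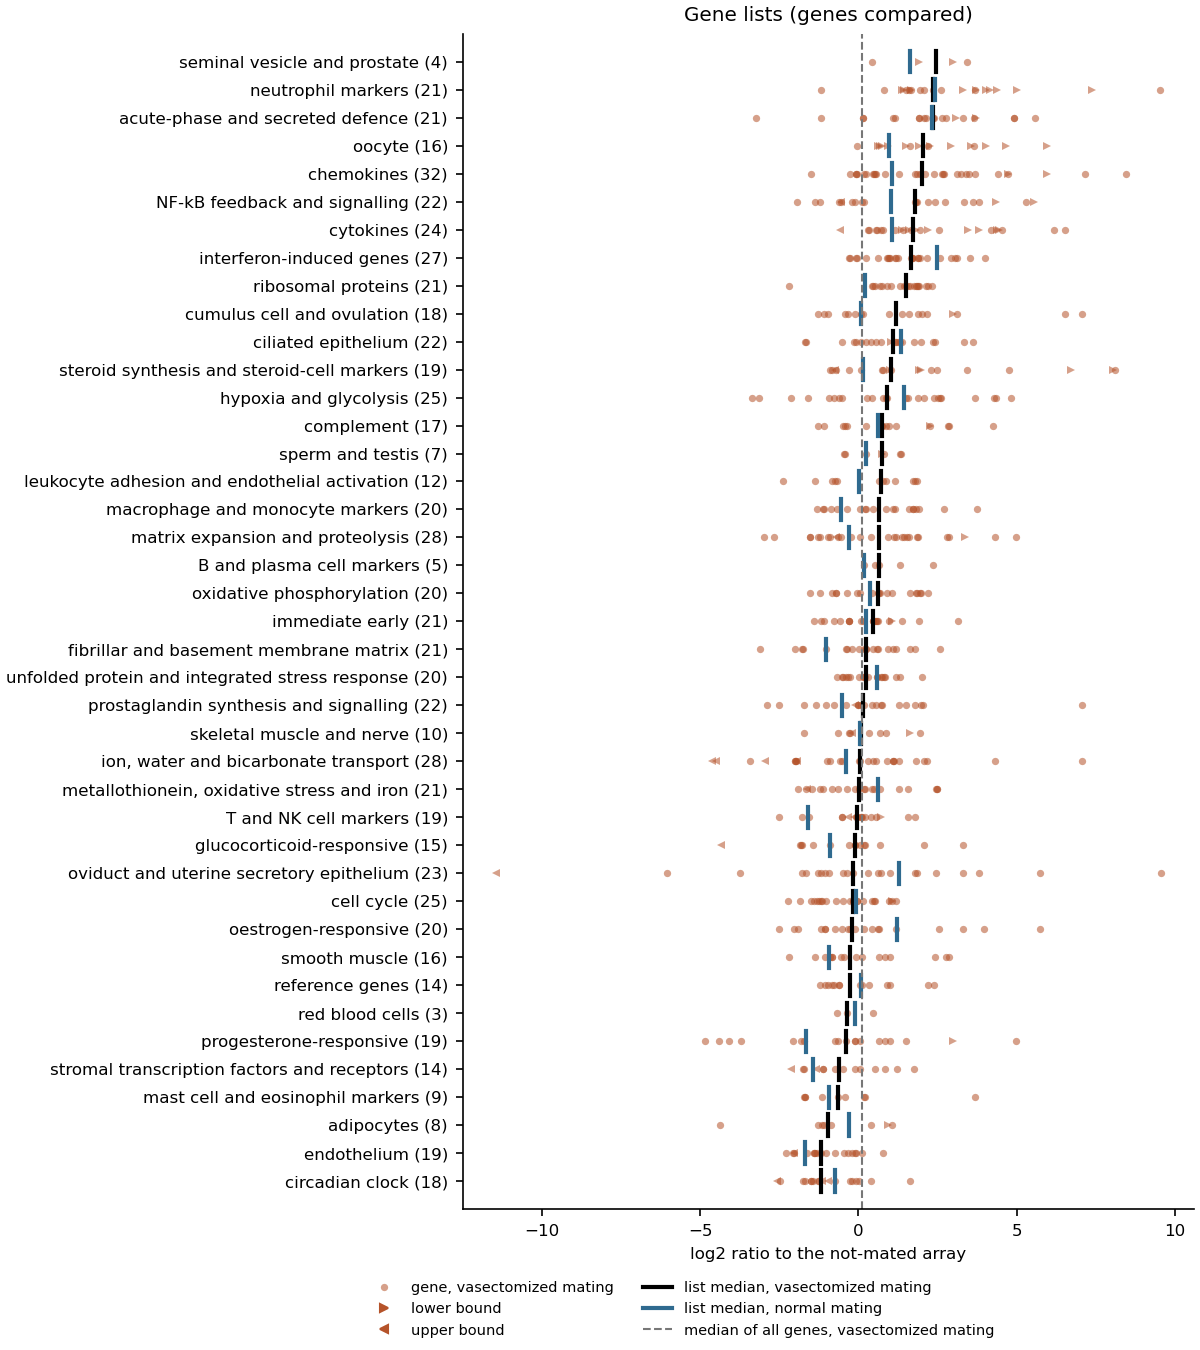
Log2 ratio of every compared gene in 41 gene lists after vasectomized mating, with circles for measured values and triangles for bounds. Black bars are list medians, blue bars are the medians for normal mating against the same not-mated array, and the dashed line is the all-gene median of 0.12. The neutrophil, defence, oocyte and chemokine lists have medians from 2.02 to 2.36, the seminal vesicle list has 2.45 from only 4 genes, and the circadian clock list lies lowest at -1.19.

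Prostaglandin genes did not share a direction. Of 22 genes 6 were higher and 5 lower, shares near those of all genes, with a median of 0.13 against -0.51 after normal mating, and its side of the all-gene median changed with normexp correction, median centring and no filter. Beside Ptgs2, Ptges3, a cytosolic prostaglandin E synthase that is also the chaperone p23, had relative signals of 2.86, 11.9 and 3.56, a ratio of 2.05 by probes 542 bases apart. The receptor for prostaglandin F2 alpha, Ptgfr, had 0.154, 0.532 and 0.0605, so it was higher after vasectomized mating at 1.79 and lower after normal mating at -1.34. Slco2a1, which takes prostaglandins up into cells for breakdown, had 1.93, 0.26 and 1.06, a ratio of -2.89 by probes at -2.95 and -2.84. Single probes put Pla2g10, a secreted phospholipase that releases the substrate of prostaglandin synthesis, at -2.50 and the prostaglandin D synthase gene Hpgds at -1.73. Another single probe put Ptges2 the other way, at 1.96. Among members with agreeing probes, Ptgs2, Ptges3 and the receptor were thus higher and the uptake carrier lower.

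Chemokines attract leukocytes from the blood. Of 32 compared, 20 were at least 2-fold higher and 1 lower, with a median of 2.02 against 1.05 after normal mating, and 3 of the 9 with several probes were higher by every probe. Ccl7, which attracts monocytes, had relative signals of 0.0287, 0.273 and 0.0921, a ratio of 3.25 by probes at 2.89 and 3.61. Cxcl16, which is made as a membrane anchor for T cells and as a soluble attractant, had 1.14, 4.41 and 7.0, a ratio of 1.95 by probes 3082 bases apart. Cxcl15, known from lung epithelium, had 0.0884, 0.322 and 0.216, with probes at 1.86 and 1.87. The largest chemokine ratios rested on single probes, Cxcl5 at 8.47, Cxcl1 at 7.15 and Cxcl2 at a bound of 5.97. After normal mating these genes were also higher, at 8.10, 5.77 and a bound of 4.66.

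Among cytokines, 17 of 24 were higher and 0 lower, with a median of 1.73. Il1f9 and Il1a, of the interleukin 1 family, had agreeing probes at background on the not-mated array, giving bounds of 3.48 and 1.81, and both bounds were larger after normal mating at 5.19 and 3.88. Il6, a fever and acute-phase cytokine, went the other way. Its single probe is printed 10 times and had relative signals of 0.0206, 1.89 and 0.112, a ratio of 6.52 against 2.44. The SD over its spots was 0.20 on the not-mated and 0.071 on the vasectomized-mated array. Among genes of NF-kB feedback, 12 of 22 were higher and 3 lower, with a median of 1.80. Birc3, an apoptosis inhibitor that NF-kB induces, had 0.399, 4.92 and 1.21, a ratio of 3.62 by probes 7289 bases apart. Tnfaip3, which ends NF-kB signalling, was at 5.31 by 1 probe.

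The promoters of some of these genes carry letters of the kind that NF-kB binds, and they are shown for members with large ratios. The windows are the 250 bases before the start in RefSeq on GRCm38.p6, read 5′ to 3′ on the gene's strand, and capitals mark matches on either strand to GGG, any 2 bases and TTTCC, which reads GGAAA, any 2 bases and CCC on the other strand. Of all 32851 windows 1.41% hold a match. The list counts that follow are of genes, where a match in any window of a gene counts, so they are not the same measure. Among genes of the lists with a window, 5 of 23 chemokines (Cxcl1, Cxcl2, Cxcl3, Ccl20 and Ccl9), 4 of 18 cytokines (Il6, Il1rn, Csf1 and Ltb) and 3 of 15 NF-kB genes (Tnfaip3, Nfkbia and Nfkb2) hold one. The windows shown lie on the plus strand at chr5:90890995-90891244 for Cxcl1, chr5:90903649-90903898 for Cxcl2 and chr5:30012864-30013113 for Il6.
Cxcl1: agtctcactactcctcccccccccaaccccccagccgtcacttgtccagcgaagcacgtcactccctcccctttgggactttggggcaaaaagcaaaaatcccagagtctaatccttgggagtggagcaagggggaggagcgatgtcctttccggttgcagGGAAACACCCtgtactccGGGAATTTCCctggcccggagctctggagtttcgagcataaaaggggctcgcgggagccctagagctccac
Cxcl2: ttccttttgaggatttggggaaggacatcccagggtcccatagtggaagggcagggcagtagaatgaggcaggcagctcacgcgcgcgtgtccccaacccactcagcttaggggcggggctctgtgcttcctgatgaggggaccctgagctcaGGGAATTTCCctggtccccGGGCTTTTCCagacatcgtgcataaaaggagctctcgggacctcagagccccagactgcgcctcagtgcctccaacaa
Il6: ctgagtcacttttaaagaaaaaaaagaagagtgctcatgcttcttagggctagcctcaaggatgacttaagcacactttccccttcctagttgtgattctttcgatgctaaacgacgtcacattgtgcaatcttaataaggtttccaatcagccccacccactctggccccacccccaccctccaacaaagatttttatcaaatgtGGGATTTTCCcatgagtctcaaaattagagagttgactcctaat
Cxcl1 and Cxcl2 each hold 2 matches that do not overlap, and Il6 holds 1 that begins 44 bases before the start. A match is a description of letters and not a shown binding site. All 5 chemokine genes named here had log2 ratios or bounds from 3.39 to 7.15, and Il1rn had a bound of 2.18. Nfkbia, Nfkb2, Csf1 and Ltb, with the same letters, stood at 0.19, 0.13, 0.32 and 0.58. Of the 32 chemokines compared, 20 were at least 2-fold higher, with or without the letters. Ratios of genes with and without a match were not compared, so these values show no link between letters and ratio. Genes with no values elsewhere in the text are named here for their letters.

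Among interferon-induced genes, 17 of 27 were higher and 0 lower, with a median of 1.66 against 2.49 after normal mating. Only 1 of the 10 with several probes was higher by every probe, Ifi44, with relative signals of 0.126, 0.747 and 1.22 and probes at 1.76 and 3.38. In 2 of the 10, Ddx58 and Irf1, singled out after their values were seen, probes passed 2-fold in opposite directions, from -2.64 to 1.5 and from -1.56 to 2.03. The ubiquitin-like Isg15 was at 3.11 and Mx2, an antiviral GTPase, at 4.01, each by 1 probe. The windows of 12 of 21 members hold TTTC, any 2 bases and TTTC on either strand (GAAA, any 2 bases and GAAA on the other). Interferon-activated factors bind letters of this kind. Of all single windows 2.98% hold them, whereas a list gene counts by any of its windows. Of the 12 members, Bst2, Gbp2, Ifit3, Oas3, Igtp and Irgm1 lay within 2-fold, from -0.30 to 0.99. The others were higher, from Rsad2 at 1.17 to Isg15 at 3.11. The windows of Isg15 and of Ifit1, which was chosen after its values were seen, are shown with their matches in capitals. They lie at chr4:156200819-156201068 on the minus strand and chr19:34640639-34640888 on the plus strand.
Isg15: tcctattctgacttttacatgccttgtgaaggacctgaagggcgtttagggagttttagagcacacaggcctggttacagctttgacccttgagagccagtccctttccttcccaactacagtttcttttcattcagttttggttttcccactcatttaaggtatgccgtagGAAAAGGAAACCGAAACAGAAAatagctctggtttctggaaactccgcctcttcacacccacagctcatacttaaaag
Ifit1: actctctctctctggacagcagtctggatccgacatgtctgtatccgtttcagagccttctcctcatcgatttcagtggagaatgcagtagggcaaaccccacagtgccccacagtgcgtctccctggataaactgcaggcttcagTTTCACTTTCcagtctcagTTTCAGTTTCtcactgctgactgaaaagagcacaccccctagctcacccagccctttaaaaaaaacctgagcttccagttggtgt
The 3 matches of Isg15 overlap each other and the 2 of Ifit1 do not. Ifit1, an antiviral RNA-binding protein, had relative signals of 0.479, 1.51 and 5.94, so it was highest after normal mating, with ratios of 1.66 and 3.63.

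Among markers of neutrophils, 19 of 21 were higher and 1 lower, with a median of 2.36 against 2.42 after normal mating. Itgam, a subunit of the adhesion receptor Mac-1, had relative signals of 0.0444, 0.125 and 0.198, a ratio of 1.49 by probes at 1.14 and 1.84. S100a9, which neutrophils carry in large amounts, was at 9.54 and its partner S100a8 at a bound of 7.39, each by 1 probe. Of 20 macrophage and monocyte markers, 9 were higher and 3 lower, with a median of 0.66 after vasectomized and -0.57 after normal mating. Msr1, a scavenger receptor, had 0.0178, 0.0622 and 0.0461, a ratio of 1.80 by probes 3185 bases apart. Single probes put Adgre1, the F4/80 antigen, at 3.73 and the mannose receptor Mrc1 at 2.71, with -0.02 and 0.19 after normal mating. The macrophage markers named here are all among the 9 higher ones, and 8 others of the list lay within 2-fold.

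Markers of T, NK and mast cells were not mostly higher, unlike those of neutrophils. The T and NK cell list had 2 of 19 genes higher and 3 lower, with a median of -0.04 whose side of the all-gene median changed with normexp correction. The 2 higher members were Tbx21 at 1.78 and Cd3d at 1.56, each by 1 probe, with -1.35 and -0.91 after normal mating. Nkg7, a cytotoxic granule protein, was lower by both probes, at -1.79 by the measured one, with relative signals of 0.61, 0.177 and 0.0723. Of 9 mast cell and eosinophil markers, 4 were lower and 1 higher. The mast cell proteases Mcpt4 and Cma1 were at -1.69 (probes -1.75 and -1.64) and -1.70 (probes -2.07 and -1.34), and both were lower still after normal mating at -2.85 and -2.75. The eosinophil receptor Ccr3 was the 1 higher member, at 3.67 by 1 probe, with 0.0185, 0.236 and 0.0116. Of 5 B and plasma cell markers 2 were higher, with Ms4a1, the CD20 antigen, at 2.37 by 1 probe.

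Among genes of leukocyte adhesion, 4 of 12 were higher and 2 lower. The lower ones had agreeing probes: Ackr1, which carries chemokines across venules, at -1.39, and F3, tissue factor, which starts clotting, at -2.38. F3 had relative signals of 15.6, 2.99 and 4.28 by probes 40 bases apart. The probes of Icam1, a ligand for neutrophil integrins, disagreed at -0.35 and 3.78, and the mean of 1.71 hides this. The probe at 3.78 is printed 10 times with an SD over spots of 0.0359 on the vasectomized-mated array, so the disagreement is far larger than the scatter between spots.

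Among acute-phase and secreted defence genes, 17 of 21 were higher and 2 lower, with medians of 2.35 and 2.31 after vasectomized and normal mating. Defb1, an antimicrobial peptide, had relative signals of 0.0469, 0.244 and 0.277, with probes at 2.23 and 2.53. Wfdc18, a secreted whey acidic protein family member, had 22.3, 97.4 and 66.7, with probes at 2.12 and 2.13, though only 10 bases apart. Saa1, an acute-phase protein carried on lipoprotein, was at 2.35 by its measured probe with 0.202, 1.03 and 0.875. In these genes the not-mated pool was lowest and both mated pools lay close together. Among complement genes, 6 of 17 were higher and 2 lower, with a median of 0.75, and single probes put factor B, Cfb, at 4.24 and factor I, Cfi, at 2.87. None of the 7 complement genes with several probes was past 2-fold by every probe.

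Among steroid synthesis and steroid-cell markers, 10 of 19 were higher and 0 lower, with a median of 1.01 after vasectomized and 0.13 after normal mating. Fdx1, the ferredoxin that feeds electrons to Cyp11a1, had relative signals of 4.94, 24.0 and 5.48, a ratio of 2.28 by 3 probes from 2.03 to 2.73. Inha, the alpha subunit of inhibin from granulosa cells, was at 2.47 by its measured probe with 0.0957, 0.531 and 0.109. Both returned a normal-mating ratio near 0, at 0.15 and 0.18. Hsd3b1, the next enzyme after Cyp11a1, was at 8.11, Mgarp at a bound of 8.04 and Nr5a2, a nuclear receptor of granulosa and luteal cells, at 4.76, each by 1 probe. After normal mating Hsd3b1 was also higher, at 4.04, and Mgarp at a bound of 5.26, whereas Nr5a2 was at -1.31. Nr5a2 had relative signals of 0.065, 1.77 and 0.0262. Star, the cholesterol carrier of the acute steroid response, chosen after its values were seen, was within 2-fold by both probes at a mean of 0.07.

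Genes of ovulation, the cumulus and the oocyte were high on the same array. The cumulus and ovulation list, which shares Ptgs2 and Il6 with the lists above, had 9 of 18 genes higher and 2 lower, with medians of 1.18 and 0.06. Of 16 oocyte genes 11 were higher and 0 lower, with a median of 2.06 that rests mostly on bounds. After normal mating the median was 0.97, over the 12 genes compared there. In every list, a gene with signal only on the vasectomized-mated array could count as higher or within 2-fold, but not as lower. The split of the oocyte genes is thus largely fixed by this rule. Zp3, the zona pellucida protein that sperm bind, had relative signals of 0.0232, 0.106 and 0.0225 by its measured probe, a ratio of 2.18, with the other probe at a bound of 3.69. Gdf9, an oocyte growth factor, had 0.0929, 1.16 and 0.364, a ratio of 3.64 by 1 probe. The part that ovary or oocyte RNA in the pool could have in these values was not tested.

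Transcripts of the male side were few. Of 18 sperm and testis genes 7 had a signal to compare, of which 2 were higher and 0 lower, with a median of 0.75. Tnp2, a transition protein of spermatids, was at 1.34, with relative signals of 0.0187, 0.0475 and 0.0221 near the background. Of 12 seminal vesicle and prostate genes on the array 4 could be compared, and 3 were higher. Their median of 2.45 lay 2.32 above that of all genes, but only 0.12 above it without a filter on dim probes. Sbp, the spermine-binding protein of the prostate, had 0.0799, 0.854 and 1.27, a ratio of 3.42 by 1 probe and of 3.99 after normal mating. That probe lies at chr17:22132980-22133039 on mm7. Probes of Dcpp1 and Dcpp2, which were also higher after both matings, lie at chr17:22062329-22062382 and chr17:22061302-22061348. Whether the Sbp signal came from the male or from the female tract was not tested. No gene of the seminal vesicle list had several usable probes.

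Among genes of matrix expansion and proteolysis, 13 of 28 were higher and 6 lower, with a median of 0.66 that changed its side of the all-gene median without a filter on dim probes. Timp1, an inhibitor of metalloproteases, had relative signals of 0.209, 1.51 and 1.12, a ratio of 2.86 by 3 probes from 2.41 to 3.73 that span 1770 bases. The adhesive phosphoprotein Spp1 was at 5.0 by 1 probe printed 10 times. Hyal1, named among the leading lower genes, had 2.03, 0.259 and 0.633. Among fibrillar and basement membrane genes, 5 of 21 were higher and 5 lower, and their median of 0.25 changed side with normexp correction, quantile normalization, cyclic loess and no filter.

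Members of this matrix group differed in direction even where their probes agreed. Postn, a matrix protein of fibroblasts, had relative signals of 13.3, 80.4 and 10.1, a ratio of 2.59 by its measured probe and a bound of 2.05 by the other. Col15a1, a basement membrane collagen, had 0.15, 0.462 and 0.0541, a ratio of 1.62 after vasectomized and -1.28 after normal mating. Fn1, fibronectin, was lower by all 3 probes, from -3.70 to a bound of -1.75, with 1.29, 0.15 and 0.473. Col4a2, of the main basement membrane collagen, was at -2.01 (probes -2.74 and -1.28) with 1.47, 0.365 and 0.476. After normal mating all 4 of these genes lay below the not-mated array, at -0.40, -1.28, -1.27 and -1.63. The normal-mating values of Col15a1 and Fn1 rest on other sets of measured probes than their ratios after vasectomized mating.

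Among stromal transcription factors and receptors, 6 of 14 were lower and 2 higher, with a median of -0.61. Hand2, a progesterone-driven factor of uterine stroma, had relative signals of 0.194, 0.0585 and 0.0367, a ratio of -1.73 by probes 37 bases apart, and Ptch1, the hedgehog receptor that is also a hedgehog target, was lower by bounds of -1.67 and -1.02. Among smooth muscle genes, 4 of 16 were higher and 3 lower, with medians of -0.27 and -0.94. Tagln, an actin-binding protein of smooth muscle, had 74.1, 399 and 79.0, a ratio of 2.43 by probes 819 bases apart and 0.09 after normal mating. Other members went both ways by single probes, with Lmod1 at 2.86 and Casq2 at 2.78, but Smtn at -2.20 and Myh11 at -1.38. Acta2, smooth muscle actin, which was chosen after its values were seen, showed wide scatter, with 5 probes from -1.43 to 3.51. Among endothelial genes, 11 of 19 were lower and 0 higher, with medians of -1.18 and -1.68. Vwf, the clotting factor of endothelium, had 2.31, 0.871 and 0.625, with probes at -1.57 and -1.25, and Pecam1 was at -2.30 by 1 probe printed 10 times.

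Among ciliated epithelium genes, 12 of 22 were higher and 2 lower, with medians of 1.1 and 1.34. Dnah9, a motor protein of cilia, was the 1 member higher by every probe, with relative signals of 1.07, 2.47 and 2.20, and Ccdc39, which builds the ruler of the axoneme, was at 3.61 by 1 probe. Among secretory epithelium genes, 8 of 23 were higher and 8 lower, and their median of -0.17 changed side when the brightest probe was used, against 1.29 after normal mating. Muc4, a membrane mucin, had 0.227, 3.16 and 7.63, and all 5 of its probes were higher, from 1.26 to 6.01, whereas after normal mating they ran from 4.82 to 5.24. Prss29, a protease of uterine glands, had 82.2, 1.24 and 3.52, a ratio of -6.05 by 1 probe. Prss28, a related gland protease, had the largest difference of all genes compared, also by 1 probe. Its relative signal was 55.8 on the not-mated array and not well above background after vasectomized mating, at least 2833-fold lower, with a ratio of -9.26 after normal mating. In the same list Sprr2d, of the cornified envelope family, was at 9.55 by 1 probe.

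Among progesterone-responsive genes, 7 of 19 were lower and 3 higher, with a median of -0.40 against -1.65 after normal mating. Lrp2, an endocytic receptor of the epithelium, was lower by all 4 probes, from -5.33 to a bound of -1.63, with relative signals of 2.94, 0.171 and 0.228. With Ihh and Hand2 it was 1 of 3 members lower by every probe. In 2 members, Pgr, the progesterone receptor itself, and Lifr, the receptor for leukemia inhibitory factor, probes passed 2-fold in opposite directions, from -1.35 to 1.12 and from -3.45 to 4.08, so their means of -0.11 and -0.64 say little. Both were singled out after their values were seen. Among oestrogen-responsive genes, 5 of 20 were higher and 6 lower, with a median of -0.20 that changed side when the brightest probe was used, against 1.22 after normal mating. None of the 9 with several probes was past 2-fold by every probe.

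Among genes of hypoxia and glycolysis, 12 of 25 were higher and 4 lower, with medians of 0.91 and 1.43. Pdk1, which keeps pyruvate out of mitochondria, had relative signals of 0.768, 2.25 and 1.73, a ratio of 1.55 by probes 2132 bases apart. Ldha, lactate dehydrogenase, had 25.3, 71.3 and 92.6, with probes at 1.29 and 1.69. Pgk1, a glycolytic enzyme, had 22.3, 118 and 98.6, with probes at 2.36 and 2.44. Egln3, an oxygen-sensing hydroxylase, was at 4.83 by 1 probe. In these 4 genes both mated pools lay above the not-mated pool.

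Among immediate early genes, 4 of 21 were higher and 3 lower, with a median of 0.45 that changed side with normexp correction, and beside Junb the factor Klf6 was higher by both probes, at 1.24 and 2.60, with relative signals of 5.17, 19.6 and 9.77. Among genes of the unfolded protein response, 3 of 20 were higher and 0 lower. Dnajb9, a chaperone partner in the endoplasmic reticulum, was higher by all 3 probes, from 1.07 to 1.32, with 1.17, 2.65 and 1.69. The median of this list, 0.25, changed side with normexp correction, quantile normalization, cyclic loess and no filter. Among glucocorticoid-responsive genes, 5 of 15 were lower and 2 higher, with Klf9, a hormone-driven repressor, at -1.78 (probes -2.12 and -1.43) and 1.81, 0.527 and 0.743 on the arrays.

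The circadian clock list had the lowest median, -1.19 against -0.75 after normal mating. Of 18 genes 10 were lower and 1 higher. Per2, a core repressor of the clock, had relative signals of 0.20, 0.0598 and 0.107, a ratio of -1.74 by probes at -2.41 and -1.08. Cry2, its partner repressor, had 1.35, 0.244 and 0.876, a ratio of -2.47 by its measured probe. Rora, a nuclear receptor that drives clock genes, had 0.44, 0.157 and 0.248, with probes at -1.66 and -1.31. All 3 were lower by every probe and lay in between after normal mating, at -0.91, -0.98 and -0.83. For Cry2 the normal-mating value is a mean over both probes, and the probe that gave -2.47 was at -0.62 there. The higher member was Bhlhe40, a clock repressor that hypoxia also induces, at 1.63 by 1 probe. No source used here gives the hour at which each pool was collected, and its part in these values was not tested.

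Among ion, water and bicarbonate transport genes, 9 of 28 were higher and 9 lower, with a median of 0.04 whose side changed with only probes well above background on both arrays. Cftr, the chloride and bicarbonate channel of the oviduct, had relative signals of 0.825, 2.00 and 3.47 by a probe printed 10 times, a ratio of 1.28, and 2.07 after normal mating. The bicarbonate cotransporter Slc4a7 had 0.34, 45.7 and 0.525, a ratio of 7.07 by 1 probe that no other probe could check. Among genes of metallothionein, oxidative stress and iron, 5 of 21 were higher and 6 lower, with a median of 0.02 and no member past 2-fold by every one of several probes. Nqo1, a detoxifying quinone reductase, was at 2.47 by 1 probe. Among cell cycle genes, 9 of 25 were lower and 3 higher, with a median of -0.18. Ccne1 was the 1 member past 2-fold by every probe, at 1.18, but its probes share a position, and the replication helicase subunit Mcm6 was at -1.84 by 1 probe.

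Genes of translation and respiration differed by complex. Of 21 ribosomal protein genes in the list 14 were higher and 1 lower, with a median of 1.49 against 0.22 after normal mating, where 0 of 21 passed 2-fold. Above the all-gene median the list stood by between 0.17 and 1.43 over the settings. Rps3 had relative signals of 78.5, 396 and 99.8, a ratio of 2.33 by probes 3388 bases apart, and Rplp0, of the ribosomal stalk, was higher by all 3 probes, from 1.17 to 1.53. Ribosomal protein genes have many near-identical copies in the genome, so their probes may read several. In the list of oxidative phosphorylation 7 of 20 genes were higher and 2 lower, with a median of 0.63 that changed side with normexp correction, quantile normalization and cyclic loess. Its agreeing members Ndufb8 and Cox7a2, small subunits of complex I and of cytochrome oxidase, were at 1.96 and 1.97.

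All genes of several complexes were then counted by the stem of their symbols, a grouping chosen after the values were seen. Of 82 cytosolic ribosomal protein genes 47 were higher and 1 lower, with a median of 1.22. Complex I subunits were higher in 21 of 36 cases (median 1.09), mitochondrial import proteins in 11 of 23 (0.98) and mitochondrial ribosomal proteins in 26 of 78 (0.59). Cytosolic aminoacyl-tRNA synthetases, which serve the same protein synthesis as ribosomes, went the other way, with 0 of 19 higher, 12 lower and a median of -1.23. After normal mating the medians of these 5 groups were 0.13, 0.37, 0.16, 0.32 and 0.12, and 0 of the 19 synthetases passed 2-fold. Of the 12 synthetases with several probes only 1 was lower by every probe and 1 was opposite, a share near that of all genes. The size of these differences depended on the scaling. The median of the 82 cytosolic ribosomal genes lay 1.101 above that of all genes, but 0.22 above it with cyclic loess and 0.038 above it with quantile normalization. For complex I the excess was 0.97, and over the other settings it lay between 0.36 and 1.03. The synthetases lay between -1.64 and -1.15 from the all-gene median, and the mitochondrial ribosomal proteins changed side with normexp correction.

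The genomic span of the genes was set beside the family medians. The median span in the RefSeq table was 3207 bases for cytosolic ribosomal proteins and 27792 bases for the synthetases. Collagens stood at 114410 bases and a median ratio of 0.19, and laminins at 64499 bases and 0.01. Plexins and semaphorins stood at 39777 bases and -0.82, proteasome core subunits at 10067 and 0.89, and proteasome cap subunits at 13294 and -0.32. All these families were grouped after the values were seen. When genes with a span were ranked by it into 4 equal bins, the 3588 shortest had a median log2 ratio of 0.39 and the 3588 longest -0.08, and 29.96% and 15.6% of them were at least 2-fold higher. After normal mating these medians were 0.12 and -0.26. Over the measured genes with a span, the Spearman correlation between span and ratio was -0.15, and -0.20 after normal mating. The part of gene span in these ratios was not tested.

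**Figure D5:**
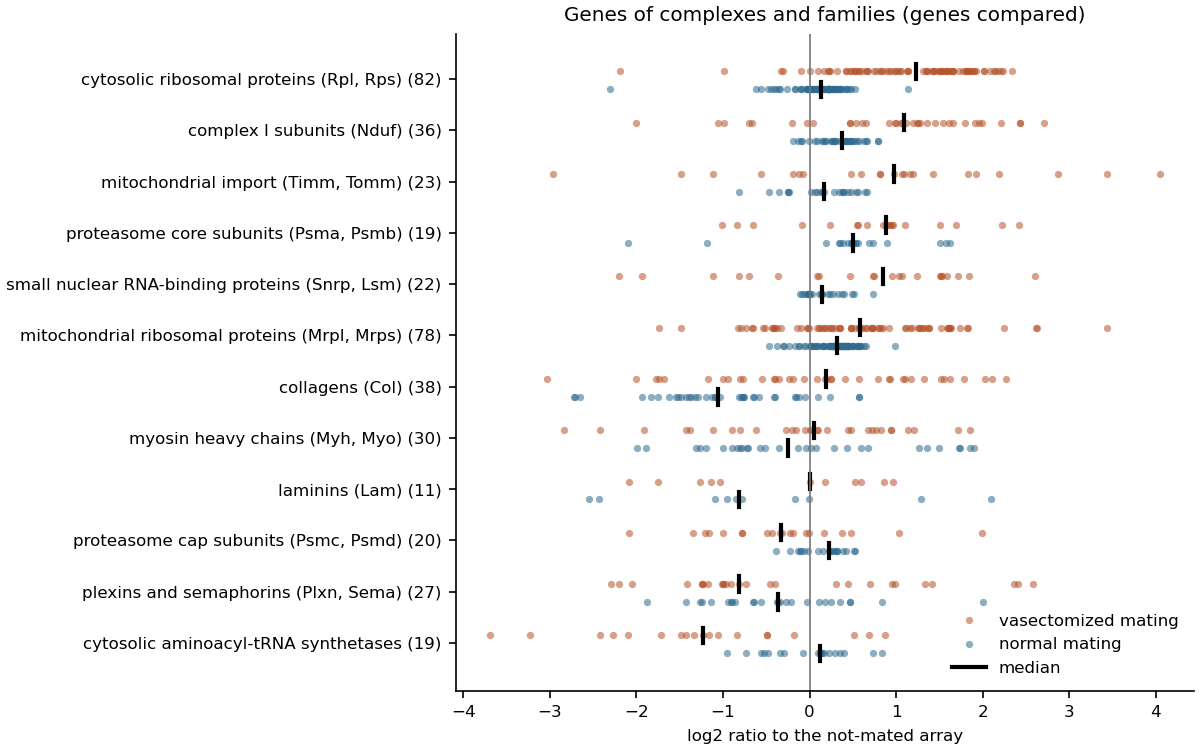
Log2 ratio to the not-mated array of genes in complexes and families with at least 10 compared genes, after vasectomized mating (upper row of each pair) and normal mating (lower row), with black bars at the medians. Ribosomal proteins centre on 1.22 and 0.13, and aminoacyl-tRNA synthetases on -1.23 and 0.12.

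Reference genes did not keep one level. Of 14 compared, 3 were higher and 2 lower, with a median of -0.27, from Sdha, a subunit of succinate dehydrogenase, at -1.21 to Pgk1 at 2.4. Actb, cytoplasmic actin, was at 1.01 with probes at 0.19 and 1.83, and B2m, the light chain of class I molecules, at 0.06 with probes from -0.85 to 0.71. Markers of fat, red blood cells, skeletal muscle and nerve, which a dissection could carry along, were few among the higher genes. This does not hold for the ovary and oocyte genes described above. There, 11 of 16 oocyte genes and 10 of 19 steroid-cell genes were higher, and the part of carried-over ovary was not tested. The oocyte count is largely fixed by the rule on bounds given above, so it cannot be set against the other marker lists. Of 8 adipocyte genes 1 was higher and 4 lower, with Pck1, of lipid and glucose synthesis, at -4.38 by 1 probe. Of 3 red blood cell genes 0 passed 2-fold, with a median of -0.38 that changed side without a filter. Of 10 skeletal muscle and nerve genes 2 were higher and 1 lower, with a median of 0.07 that changed side with normexp correction, quantile normalization, cyclic loess and no filter, and Uchl1, a neuronal ubiquitin hydrolase, was at 1.94 by probes at 1.54 and 2.34.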

How the data were processed

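Each array's scanner file holds processed signal intensity, deposited by the authors and made by Agilent Feature Extraction, version 10.5.1.1 per the file headers and 9.5.3 per the submitters' processing notes. RNA was copied from an oligo-dT primer and labelled with Cy3, per the labels' protocols. The deposited intensity was averaged over the spots of a probe without outlier flags and control spots, converted to log2 and reduced by the log2 of the array's 75th percentile. Probes were named through accessions or symbols in the RefSeq gene table, and otherwise kept the file's name. A gene needed 2 usable probes, all at least 2-fold the same way, to count as agreeing. Named genes were, per direction, the 15 with the largest least extreme probe and the 6 with the largest bounds, then per list up to 6 agreeing members and 3 others by size, and the reference genes. The members, the 41 lists and the rules were chosen with earlier results of these data known. No test was possible with 1 array a group, and this number limits the precision. Analyses used R 4.3.3 with limma 3.58.1, and Python 3.11.15 with numpy 2.4.6 and pandas 2.3.3. The counting steps were tested on simulated data. Alternatives were normexp correction (offset 50), median centring, quantile normalization, cyclic loess, spike-in scaling, other filters on dim probes, kept outlier flags, the brightest probe and a 4-fold threshold. A count of agreeing genes with probes at least 300 bases apart was added after the data were seen. A result on 1 withheld item is not reported here.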

Additional observations from a re-analysis of the deposited data

How the results depend on the processing

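No paired analysis was possible because each group has 1 array, and for the same reason no array could be left out. The counts of 512 agreeing higher, 499 agreeing lower, 4477 higher and 3190 lower genes stayed within 1.5 times under median centring, quantile normalization, cyclic loess, both filters on dim probes, kept outlier flags and, for the 2 counts by the mean, the brightest probe. Normexp correction gave 203 agreeing lower and 1394 lower genes. Spike-in scaling gave 10, 5395, 202 and 16836, and a 4-fold threshold 109, 88, 1404 and 767. Spike-in scaling moves every measured log2 ratio by the same amount, and here the move was downward. The log2 75th percentile minus the mean spike-in log2 signal was -5.26 on the vasectomized-mated and -2.57 on the not-mated array. Spike-in scaling turned the medians of chemokines (-0.67), cytokines (-0.89), NF-kB (-0.89), interferon-induced (-1.03), defence (-0.33), ciliated (-1.52), steroid (-1.79), cumulus (-1.51) and ribosomal genes (-1.19). It also turned Actb (-1.67), Bhlhe40 (-1.05), Ccne1 (-1.51), Cftr (-1.41), Cnn1 (-1.68), Col15a1 (-1.06), Cox7a2 (-0.71), Cxcl15 (-0.82), Cxcl16 (-0.74), Defb1 (-0.30), Dnah9 (-1.48), Dnajb9 (-1.51), Fdx1 (-0.40), Icam1 (-0.97), Ifi44 (-0.11), Ifit1 (-1.03), Inha (-0.21), Itgam (-1.20), Klf6 (-0.76), Ldha (-1.19), Ms4a1 (-0.32), Msr1 (-0.88), Ndufb8 (-0.73), Nqo1 (-0.21), Pdk1 (-1.13), Pgk1 (-0.29), Postn (-0.092), Ptges3 (-0.63), Ptgfr (-0.89), Rplp0 (-1.37), Rps3 (-0.35), Saa1 (-0.33), Tagln (-0.25), Tnp2 (-1.34), Uchl1 (-0.75), Wfdc18 (-0.56) and Zp3 (-0.50). Quantile normalization turned Cnn1 (-0.21), and the cause was not tested. Of the other values of list medians and named genes under these settings, 688 stayed within the scatter between spots of a probe and 956 moved by more in size without turning a value past 2-fold. Signal over background limits dim genes, for which only bounds are given.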

Other observations

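Further gene families, grouped by the stem of their symbols after the values were seen, are given as counts and medians. The proteasome is the cell's protein-degrading complex. Of 19 core subunits 5 were at least 2-fold higher and 1 lower, with a median log2 ratio of 0.89, whereas of 20 cap subunits 2 were higher and 5 lower, with a median of -0.32. Of the genes with several probes, 0 of 3 core subunits were higher or lower by every probe, and 1 of 10 cap subunits was lower by every probe. Among small nuclear RNA-binding proteins, which build the spliceosome, 10 of 22 were higher and 3 lower, with a median of 0.85. Among the replication helicase subunits of the Mcm family, 4 of 6 were lower and 0 higher, with a median of -1.30. After normal mating the medians of these 4 families were 0.50, 0.23, 0.14 and -0.32. All 4 kept their side of the all-gene median under the 9 other settings.

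Among plexins and semaphorins, guidance receptors and their ligands, 10 of 27 were lower and 5 higher, with a median of -0.82 against -0.37 after normal mating. Among collagen genes, 11 of 38 were higher and 7 lower, and in 4 of the 21 with several probes these passed 2-fold in opposite directions. Their median of 0.19 changed its side of the all-gene median with normexp correction, with no filter and with the brightest probe, and was -1.06 after normal mating. Among beta-defensins, secreted antimicrobial peptides, 4 of 7 were higher and 1 lower, with a median of 2.38, which lay 2.26 above that of all genes but only 0.12 above it without a filter on dim probes.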
